A study of Homo sapiens with 11 samples.

Results

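The 38 genes described here encode proteins of the lysosome and of autophagy, and they were followed across 11 RNA-seq libraries of the human breast cancer lines BT483 and T47D-TamR. They were taken by gene symbol from a list, not by their measured values, and each of the 38 symbols was found among the 59087 genes counted in every library. All 38 passed the filter on low counts, as did 24023 genes in all. By role they were 13 soluble hydrolases, 3 luminal cofactors or transport proteins, 7 membrane proteins, 4 proteins of the proton pump, 8 proteins of the autophagy machinery and 3 transcription factors. BT483 is an estrogen receptor positive ductal carcinoma line. T47D-TamR was derived from T47D by continuous passage in tamoxifen and was kept in the drug, so its cells had met tamoxifen before the experiment. The study asked what follows when nemo-like kinase (NLK), a serine/threonine kinase, is lowered in such cells.

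Cells of both lines were first deprived of estrogen for 48 h in medium free of phenol red with stripped serum. In the siRNA arm each line was reverse transfected with 10 nM siRNA for 72 h, giving 4 libraries a line: siNLK type 1, siNLK type 2, control siRNA (siCtrl, a non-targeting pool) with 0.5 µM tamoxifen, and siCtrl alone. In the drug arm T47D-TamR cells, not transfected, received 0.5 µM VX-702, DMSO with 0.5 µM tamoxifen, or DMSO, the vehicle. The treatment time of the drug arm is not given in the sources used here. VX-702 is an inhibitor of p38 MAP kinase. Each of the 11 groups was 1 dish and 1 library, so contrasts used the lines, arms and siRNAs as replicates of each other, and p-values measured the spread between these libraries only. Each line was 1 culture, and differences between the lines are differences between 2 cultures.

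The lysosome is an acid compartment in which hydrolases digest material delivered by endocytosis and by autophagy. The vacuolar ATPase, a proton pump, keeps it acid. Autophagy begins with a kinase complex of ULK1 and its scaffold RB1CC1 (also called FIP200), and cargo is then enclosed in membranes that carry LC3 and GABARAP proteins. TFEB, TFE3 and MITF are related transcription factors that bind the CLEAR element in promoters of lysosomal genes and move into the nucleus when the lysosome is stressed, a step that an mRNA level does not show. Tamoxifen is a cationic amphiphilic drug. Weak bases of this kind are protonated inside the lysosome and accumulate there, where they are known to disturb lipid breakdown.

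The libraries held 14637083 to 26915863 counts, and levels are given as counts scaled to a common library size (CPM), on which 3 counts equalled 0.112 to 0.195 CPM. The share of counts in the 38 genes was 0.558 to 0.637% for BT483 and 0.419 to 0.496% for T47D-TamR. Both lines carried all 8 luminal epithelial markers, whose summed level was 13800 to 15900 CPM in BT483 and 5750 to 8260 CPM in T47D-TamR. Macrophages are rich in lysosomes, but of 8 macrophage markers only ITGAM passed 1 CPM in any library, TYROBP was at 0 in every library, and the sum was 1.08 to 2.09 CPM in BT483 and 1.34 to 6.47 CPM in T47D-TamR. Of 5 melanocyte markers, TYR and DCT were at 0, and the sum was 6.06 to 7.77 CPM in BT483 and 6.72 to 13.2 CPM in T47D-TamR. Of 8 fibroblast markers 7 passed 1 CPM in at least 1 library, with sums of 57.4 to 90.7 CPM in BT483 and 69.4 to 121 CPM in T47D-TamR. Most of each sum was FN1 and COL1A1, which had 69 and 12.1 CPM of 83.3 CPM with siCtrl in BT483. COL1A2, COL3A1, DCN and POSTN had at most 0.531 CPM in any BT483 library. In T47D-TamR COL1A2 had 2.21 CPM with siCtrl, 6.47 and 4.08 CPM with siNLK type 1 and type 2, and 0.225 CPM with siCtrl and tamoxifen. POSTN had 1.92, 5.16, 3.62 and 0 CPM in the same libraries. In the drug arm both had at most 0.406 CPM. For 16 members an annotated gene on the opposite strand overlaps an exon, and how the counting treated strand is not given in the sources used here. MAP1LC3B shares sequence with MAP1LC3B2, which had counts of its own, and GUSB with its pseudogenes.

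Levels per length, as TPM from the authors' deposited values, put PSAP first in both lines. PSAP encodes prosaposin, the precursor of the saposins that help hydrolases reach their lipid substrates, and its median was 751 TPM in BT483 (range 664 to 800) and 501 TPM in T47D-TamR (422 to 543). The ranges of PSAP did not overlap between the lines. In BT483 the next were CD63, a tetraspanin of late endosomes, with a median of 339 TPM, LAMP1, the most used marker of the lysosomal membrane, with 303 TPM, ATP6AP1, an accessory protein of the proton pump, with 277 TPM, and CTSD, the aspartic protease cathepsin D, with 241 TPM (range 146 to 305). The ranges of CD63 (325 to 419) and LAMP1 (284 to 331) overlapped, as did those of ATP6AP1 (265 to 284) and CTSD. In T47D-TamR the second was CTSZ, cathepsin Z, with 331 TPM (298 to 383), followed by GRN, which encodes progranulin, with 194 TPM (150 to 231) and CD63 with 172 TPM (155 to 211). The ranges of GRN and CD63 overlapped, and that of CTSZ stood above both. In BT483 CTSZ was only the 33rd of the 38, with 12.3 TPM (9.23 to 14.4). TFEB and MITF were the lowest in both lines, with medians of 3.06 and 2.27 TPM in BT483 and 1.12 and 0.355 TPM in T47D-TamR. TFE3 was the most abundant of the 3 factors per length, with medians of 41.8 TPM in BT483 and 46.9 TPM in T47D-TamR.

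**Figure D1:**
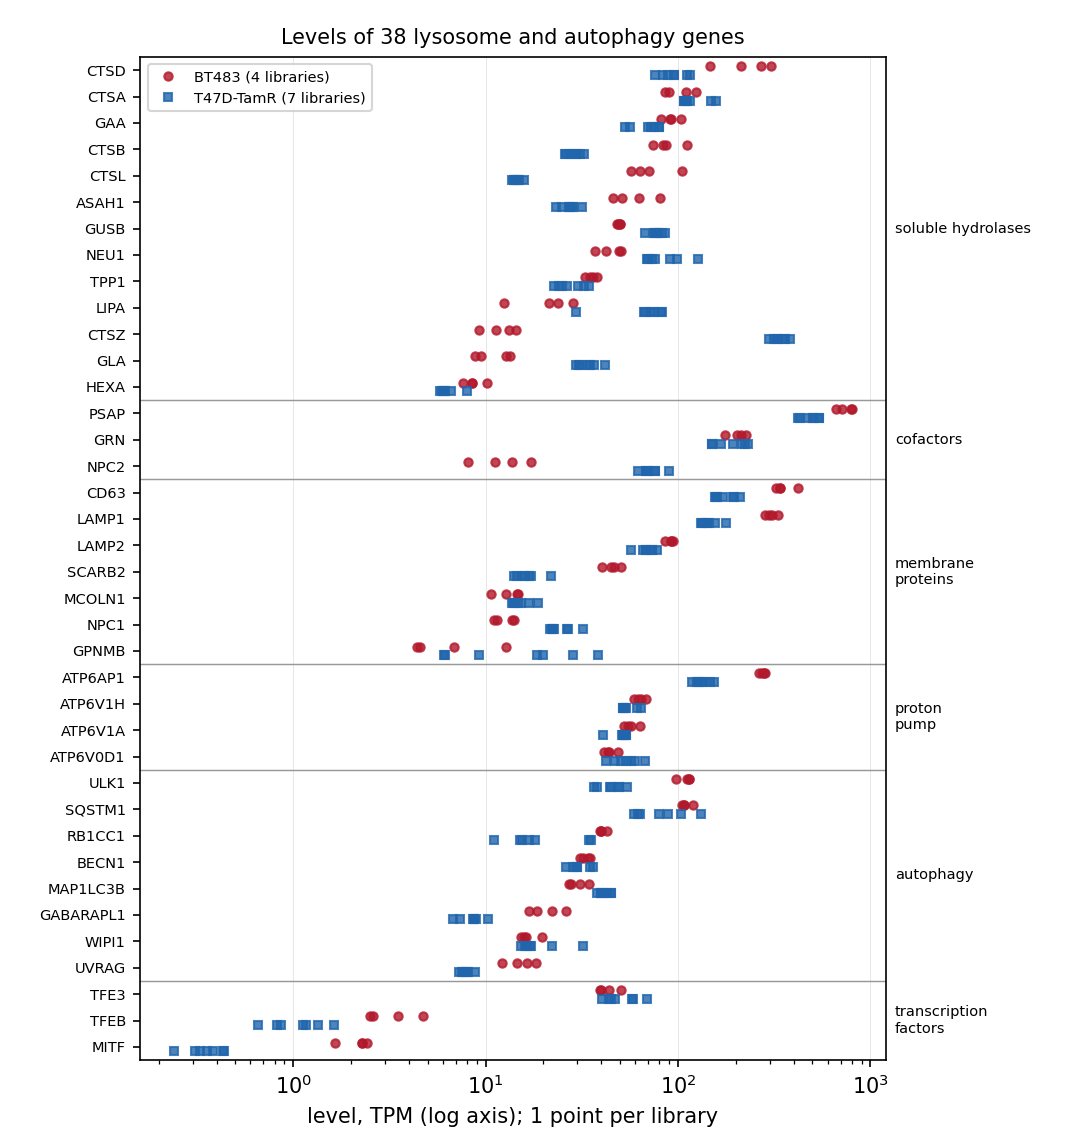
Level of each of the 38 genes in TPM on a log axis, one row a gene grouped by role, with one point a library and the lines in different colours (4 BT483 and 7 T47D-TamR libraries). PSAP lies furthest right in both lines, CTSZ lies far apart between the lines, and TFEB and MITF lie lowest.

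With tamoxifen, most of the 38 genes were slightly higher than in the untreated partner, but none passed the test. Of the 38, 34 had a positive log2 fold change in the fit over 3 pairs (BT483 siRNA arm, T47D-TamR siRNA arm and T47D-TamR drug arm), with a median of 0.18, against 51.3% positive and a median of 0.01 over all 24023 genes tested. In 3 of 3 pairs 26 members were higher with tamoxifen (68.4%, against 15.5% of all genes tested), and 0 were lower in all 3 (against 13.5%). Among genes with a mean of at least 5 CPM these shares were 66.7% of 36 members and 20.5% of all. By edgeR's quasi-likelihood test, adjusted over all genes by the method of Benjamini and Hochberg, 0 of 38 members and 0.0375% of all genes were called. At an unadjusted p under 0.05 there were 6 members, DESeq2 and limma also called 0, and edgeR with no filter on low counts called 1, RB1CC1, at a negative estimate. The tamoxifen and siNLK libraries of an arm share their siCtrl library, and the tamoxifen and VX-702 libraries of the drug arm share their DMSO library.

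Estimates were mostly positive in every role. All 3 cofactors were positive with a median of 0.32, all 4 pump proteins with 0.19 and all 3 transcription factors with 0.19. Of the 13 hydrolases 11 were positive (median 0.11), of the 7 membrane proteins 6 (0.17) and of the 8 autophagy proteins 7 (0.19). Over single pairs, on genes with a mean of at least 5 CPM, 30 of 36 members were higher in BT483 (median 0.20, against 0.01 for all), 30 of 36 in the T47D-TamR siRNA arm (0.18, against 0.04) and 33 of 36 in the drug arm (0.15, against 0.03). In the same fit 7 of 8 luminal markers were positive (median 0.10, 1 at an unadjusted p under 0.05), as were 3 of 3 macrophage markers tested (0.06), 1 of 3 melanocyte markers (-0.41) and 1 of 7 fibroblast markers (-1.10), and none of them was called. The luminal sum was 15900 CPM with tamoxifen and 15000 CPM without in BT483, 6630 and 5770 CPM in the T47D-TamR siRNA arm, and 8140 and 7410 CPM in the drug arm. The fibroblast sum was 57.4 CPM with tamoxifen and 83.3 CPM without in BT483, 79.3 and 69.4 CPM in the T47D-TamR siRNA arm, and 121 and 108 CPM in the drug arm. VIM, the median fibroblast marker, had 1.29 CPM with tamoxifen and 1.53 CPM without in BT483, and 0.188 and 1.6 CPM in the T47D-TamR siRNA arm. In the drug arm VIM had 0.0767 and 0.122 CPM, near the level of 3 counts. What part these markers' cells have in the members' values was not tested.

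**Figure D2:**
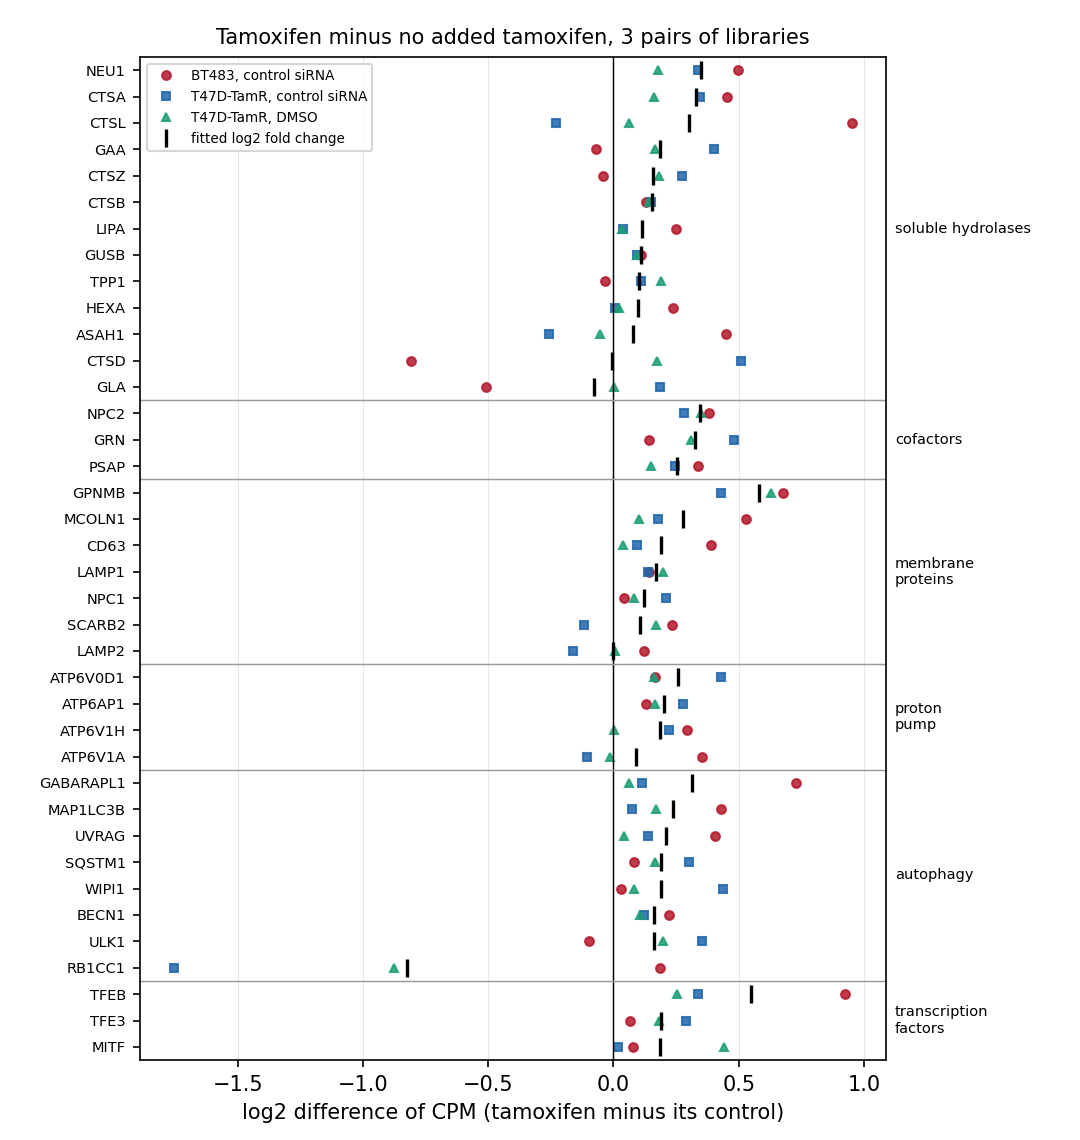
Log2 difference of CPM with tamoxifen for each member (x axis), one row a gene grouped by role, with one coloured point for each of the 3 pairs of libraries and a black tick for the fitted log2 fold change. Most points lie right of 0 by less than 0.5, and RB1CC1 lies left of 0 in both T47D-TamR pairs and right of it in BT483.

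GPNMB encodes a membrane glycoprotein of lysosomes and melanosomes that is known as a target of MITF and TFE3, and it had the highest estimate. It had 14.5 CPM with tamoxifen and 9.06 CPM without in BT483, 61.1 and 45.3 CPM in the T47D-TamR siRNA arm, and 21 and 13.6 CPM in the drug arm. Within each pair the tamoxifen library was the higher, while the 3 contexts themselves differed more than that (log2 fold change 0.58, SE 0.397, adjusted p = 0.9 by edgeR). TFEB had 9.33 CPM with tamoxifen and 4.87 CPM without in BT483, 2.25 and 1.76 CPM in the T47D-TamR siRNA arm, and 2.88 and 2.4 CPM in the drug arm. Its estimate was 0.55 (SE 0.257, adjusted p = 0.758), and the gap was widest in BT483.

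NEU1, the lysosomal sialidase, had 83.3 CPM with tamoxifen and 59 CPM without in BT483, 169 and 134 CPM in the T47D-TamR siRNA arm, and 138 and 122 CPM in the drug arm. Its log2 fold change was 0.35 (SE 0.134, adjusted p = 0.61). NPC2, the soluble carrier that hands cholesterol to NPC1 for export, had 13.2 CPM with tamoxifen and 10.1 CPM without in BT483, 87.5 and 71.9 CPM in the T47D-TamR siRNA arm, and 78.6 and 61.7 CPM in the drug arm. NPC2 was thus higher with tamoxifen in each pair (0.35, SE 0.215, adjusted p = 0.87). The 6 members at an unadjusted p under 0.05 did not include NPC2 and were NEU1, GRN (0.32, SE 0.12), CTSA, the protective protein of NEU1 (0.33, SE 0.144), PSAP (0.25, SE 0.112), ATP6V0D1, a subunit of the membrane part of the pump (0.26, SE 0.118), and RB1CC1, with adjusted p-values of 0.582 to 0.747.

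The 4 lowest estimates were those of RB1CC1 (-0.82, SE 0.304, adjusted p = 0.654), GLA (-0.08), CTSD (-0.01) and LAMP2 (-0.00). The last 3 were near 0, and their sign turned with the processing. GLA, the lysosomal alpha-galactosidase, had 7.01 CPM with tamoxifen and 10 CPM without in BT483, 33.9 and 29.8 CPM in the T47D-TamR siRNA arm, and 25.3 and 25.3 CPM in the drug arm. CTSD moved in opposite ways in the lines: 157 CPM with tamoxifen and 274 CPM without in BT483, 126 and 88.1 CPM in the T47D-TamR siRNA arm, and 111 and 98.8 CPM in the drug arm. CTSD is a textbook estrogen-induced gene. LAMP2, a membrane protein with an isoform that serves chaperone-mediated autophagy, had 182 CPM with tamoxifen and 168 CPM without in BT483, 145 and 162 CPM in the T47D-TamR siRNA arm, and 138 and 137 CPM in the drug arm, so its 3 pairs did not share a direction. Its other libraries had 165 and 160 CPM with siNLK type 1 and type 2 in BT483, 149 and 140 CPM in T47D-TamR, and 124 CPM with VX-702.

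Fitted per line, tamoxifen gave 0 called members in BT483, where 1.42% of all genes were called. There were 5 members at an unadjusted p under 0.05, and DESeq2 and limma called 0. Those 5 were CTSL, the cysteine protease cathepsin L, CTSD, GABARAPL1, a GABARAP protein of autophagic membranes, TFEB, and ASAH1, the acid ceramidase. CTSL had 67.7 CPM with tamoxifen and 35 CPM without in BT483 (log2 fold change 0.95, SE 0.266, adjusted p = 0.137). The BT483 CTSL value with tamoxifen was above those of all 3 other BT483 libraries, whereas in T47D-TamR CTSL stayed between 8.81 and 11.1 CPM in all 7 libraries. The estimate in BT483 was -0.81 for CTSD (SE 0.274, adjusted p = 0.308) and 0.45 for ASAH1 (SE 0.204, adjusted p = 0.563). ASAH1 had 436 CPM with tamoxifen and 319 CPM without in BT483, 154 and 184 CPM in the T47D-TamR siRNA arm, and 146 and 151 CPM in the drug arm. GABARAPL1 had 37.3 CPM with tamoxifen and 22.5 CPM without in BT483 (0.73, SE 0.288, adjusted p = 0.439). The difference of the tamoxifen effect between BT483 and T47D-TamR was tested itself: 0 members were called (0.654% of all genes), 4 had an unadjusted p under 0.05, DESeq2 called 1, which was RB1CC1, and limma 0. The largest were RB1CC1 (1.48, adjusted p = 0.0946), CTSD (-1.17, adjusted p = 0.229) and CTSL (1.02, adjusted p = 0.308).

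In T47D-TamR, RB1CC1 was the single member that passed the tamoxifen test, and it fell. RB1CC1 lies at chr8:52622456-52745843 on the minus strand of GRCh38. It had 30 CPM with tamoxifen and 101 CPM without in the siRNA arm, and 52 and 95.5 CPM in the drug arm. The log2 fold change over both pairs was -1.30 (SE 0.203, adjusted p = 0.0327 by edgeR), a level 0.407 times that of the controls, and 1 of 38 members compares with 0.229% of all genes called. The count ratio was 0.2961 in the siRNA arm (95% interval 0.2731 to 0.3207) and 0.5451 in the drug arm (0.5095 to 0.583); such intervals cover counting error only. In BT483 RB1CC1 had 113 CPM with tamoxifen and 99.6 CPM without, a ratio of 1.137 (1.071 to 1.206). The T47D-TamR call was lost with limma on the deposited log2 TPM table (log2 fold change -1.15, adjusted p = 0.589), with a filter of at least 10 counts in every library (-1.32, adjusted p = 0.0702), with offsets for length and GC content (-0.97, adjusted p = 0.303), and without any one of the 4 libraries of the pairs (adjusted p 0.207 to 1).

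RB1CC1 was also the member that stood apart in the other treated T47D-TamR libraries. It had 50.9 CPM with siNLK type 1, 40.4 CPM with siNLK type 2 and 45.4 CPM with VX-702, against 101 CPM with siCtrl and 95.5 CPM with DMSO. All 5 treated T47D-TamR libraries were thus below both controls, and the lowest control was above the highest treated library (52 CPM) by more than 1.5-fold. That pattern, sought after the values were seen and with no test, was met by 0.63% of the genes with a mean of at least 5 CPM, and RB1CC1 was the only one of 36 members to meet it. Without the 1.5-fold margin it was met by 13.7% of genes and by the same 1 member. The opposite pattern, all 5 treated libraries above both controls, was met by 11% of genes and by 10 of 36 members (27.8%): CTSA, CTSB, CTSD, NPC2, LAMP1, NPC1, MCOLN1, ATP6V0D1, ATP6AP1 and WIPI1. By a margin of 1.5-fold it was met by 0.00818% of genes and by 0 members. The 5 treated libraries share the 2 controls, so these values are not independent of each other. In BT483 the knockdown libraries had 98.6 and 101 CPM of RB1CC1, against 99.6 CPM with siCtrl.

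**Figure D3:**
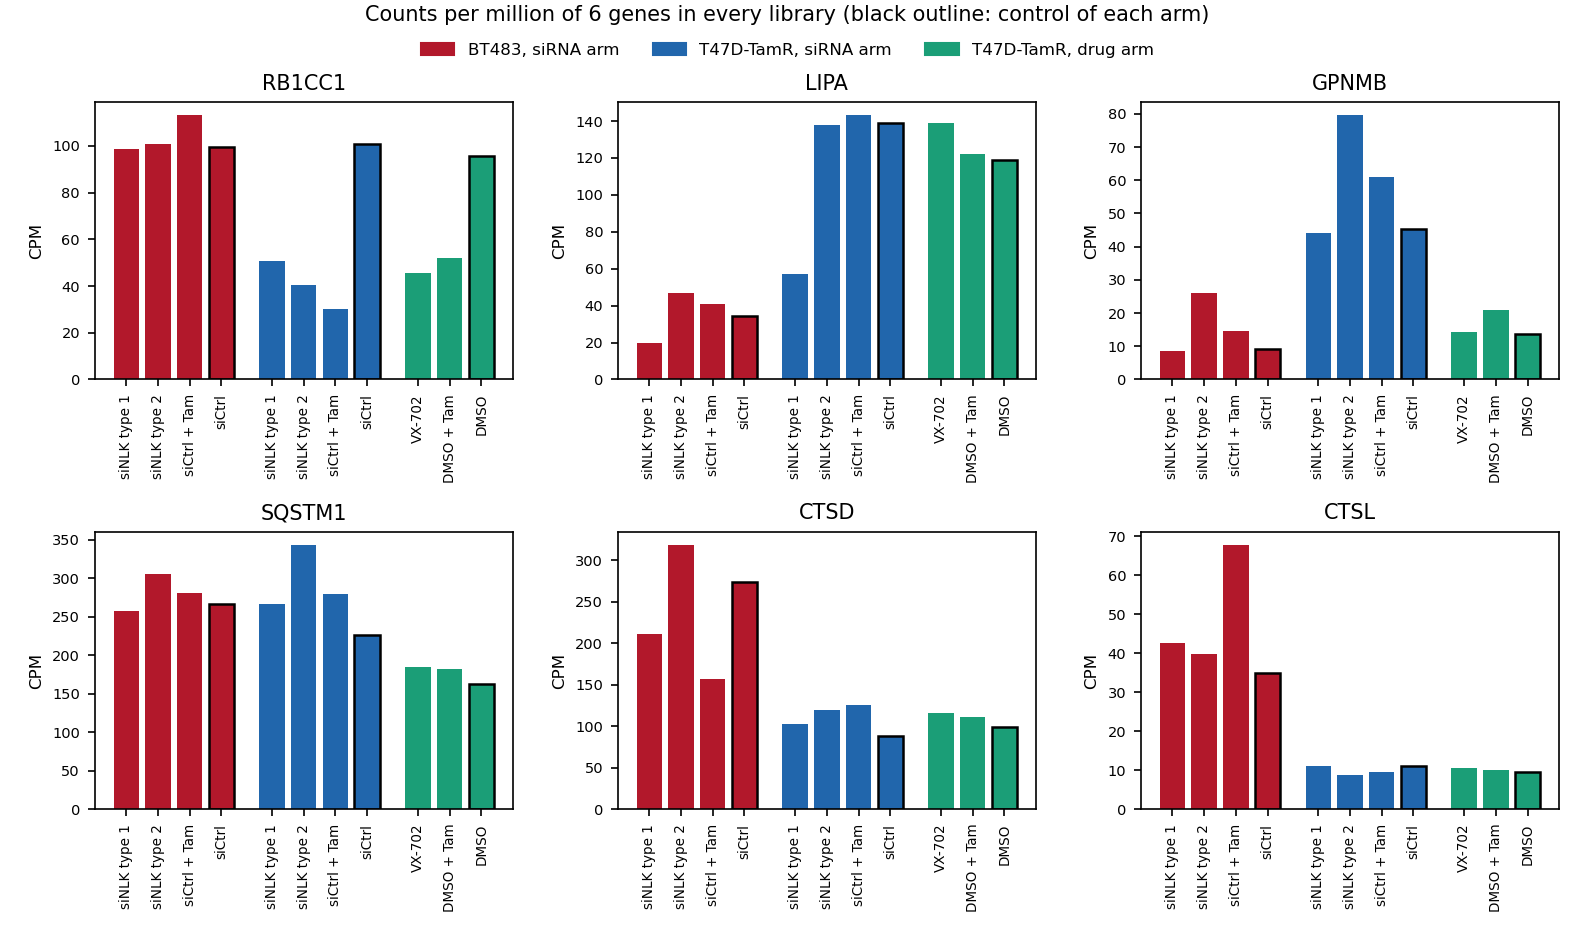
CPM of RB1CC1, LIPA, GPNMB, SQSTM1, CTSD and CTSL in each of the 11 libraries, one panel a gene, with a linear axis from 0 and the control libraries outlined in black. RB1CC1 is near 100 CPM in BT483 and in both T47D-TamR controls and between 30 and 52 CPM in the 5 treated T47D-TamR libraries; LIPA is lowest with siNLK type 1 in both lines.

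Medians of long genes were slightly below 0 in the same 5 T47D-TamR pairs. Among 12161 genes, the longest, with an exon union of at least 10704 bases, had a median log2 ratio of -0.14 with siNLK type 1, -0.01 with siNLK type 2, -0.09 with tamoxifen in the siRNA arm, -0.03 with tamoxifen in the drug arm and -0.07 with VX-702. The shortest, of up to 1828 bases, had 0.15, -0.10, 0.02, 0.04 and 0.10, so with siNLK type 2 the short genes were the lower ones. The exon union of RB1CC1 is 7615 bases, below that of the longest group, and its own log2 ratios in the same pairs were -0.99, -1.33, -1.75, -0.87 and -1.07. The longest transcript of RB1CC1 has 37.6% GC, near the low end of the members, which run from 37.3% for ASAH1 to 64.2% for ULK1. Under the offsets for length and GC content the members' median with tamoxifen in T47D-TamR was 0.07, against 0.16 without them. What part length and GC content have in the RB1CC1 value was not tested beyond the offsets above.

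Promoters of the members were searched for the CLEAR element in its strict form, for its core TCACGTGA, for the shorter E-box CACGTG that lies inside both, and for the palindromic estrogen response element in its consensus form, on both strands. The windows were 250 bases before to 50 after the start of the gene, from RefSeq on GRCh38.p14, and 29 of 38 members were in that table of 27305 promoters. The strict CLEAR element was found in 2 members (6.9%, against 0.381% of all promoters), the core in 5 (17.2%, against 1.04%) and the E-box in 8 (27.6%, against 7.43%). The estrogen response element was found in 0, but only 18 of all promoters held it (0.0659%). It is too rare in such windows for 0 of 29 to show an absence. The 5 with the core were ATP6V0D1, CTSA, GAA, LAMP1 and MCOLN1. The E-box was also present in CD63, CTSD and NEU1. A match describes letters, not binding. Of these 5 with the core, 4 were higher with tamoxifen in 3 of 3 pairs, beside 26 of all 38 members (68.4%). The other was GAA, which encodes the acid alpha-glucosidase.

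The matches of these 5 genes are shown with up to 10 bases on either side, 5′ to 3′ on the strand of the gene, with the strict element or, where it is absent, the core in capitals.
GAA, chr17:80101493-80101522, plus strand: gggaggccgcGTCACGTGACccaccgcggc
MCOLN1, chr19:7522598-7522623, plus strand: gggctaccggGTCACGTGACcgaggc
ATP6V0D1, chr16:67481200-67481227, minus strand: ccccttatggTCACGTGAggcgcttgcg
CTSA, chr20:45891299-45891326, plus strand: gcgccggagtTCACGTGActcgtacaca
LAMP1, chr13:113297200-113297227, plus strand: acccgcgggaTCACGTGAcgcccgggcg
The matches began 78, 16, 60, 26 and 29 bases before the start of the gene, in that order, and a second strict element lay 33 bases before the start of GAA and second cores 42 bases before that of MCOLN1 and 2 bases before that of LAMP1. GAA, with 2 strict elements, had 150 CPM with tamoxifen and 157 CPM without in BT483, 148 and 112 CPM in the T47D-TamR siRNA arm, and 148 and 132 CPM in the drug arm. MCOLN1 had 20.1 and 13.9 CPM, 23.7 and 20.9 CPM, and 22.1 and 20.6 CPM with and without tamoxifen in the same 3 pairs. GAA was thus higher with tamoxifen in T47D-TamR and not in BT483, and MCOLN1 was higher in all 3 pairs.

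Lowering NLK left the 38 genes without a call. NLK itself, the check of the knockdown, had 8.56 and 5.5 CPM with siNLK type 1 and type 2, against 30 CPM with siCtrl in BT483, and 10.2 and 12 CPM, against 29.6 CPM, in T47D-TamR (log2 fold change -1.77, SE 0.208, adjusted p = 0.0239 by edgeR). In the fit over 4 knockdown libraries and their 2 controls, NLK was the only gene called (0.00416% of all genes) and 0 members were. At an unadjusted p under 0.05 there were 4 members, DESeq2 and limma called 0, and edgeR with no filter on low counts called 2, GPNMB and RB1CC1. The estimates were positive for 26 of 38 members, with a median of 0.09, against 50.6% and 0.00 for all genes. That median was 0.02, with 20 members positive, under offsets for length and GC content, 0.05 without the BT483 siCtrl library, 0.05 with limma and 0.22 with no block. In the same fit 7 of 7 fibroblast markers were positive (median 0.64), as were 3 of 3 macrophage markers (0.05). Of 3 melanocyte markers 0 were positive (-0.09), and of 8 luminal markers 0 (-0.04). COL3A1, the median fibroblast marker, had 0.195 and 0.112 CPM with siNLK type 1 and type 2, against 0.0566 CPM with siCtrl, in BT483. In T47D-TamR COL3A1 had 1.71 and 2.08 CPM, against 1.24 CPM. None of these markers was called, and their part in the members' values was not tested. In 4 of 4 pairs 11 members were higher (28.9%, against 11.3% of all genes): CTSA, NEU1, HEXA, PSAP, NPC1, MCOLN1, ATP6V0D1, ATP6V1H, ULK1, MAP1LC3B and TFE3. Lower in all 4 pairs were TPP1, ASAH1 and LAMP2 (7.89%, against 11.3%).

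**Figure D4:**
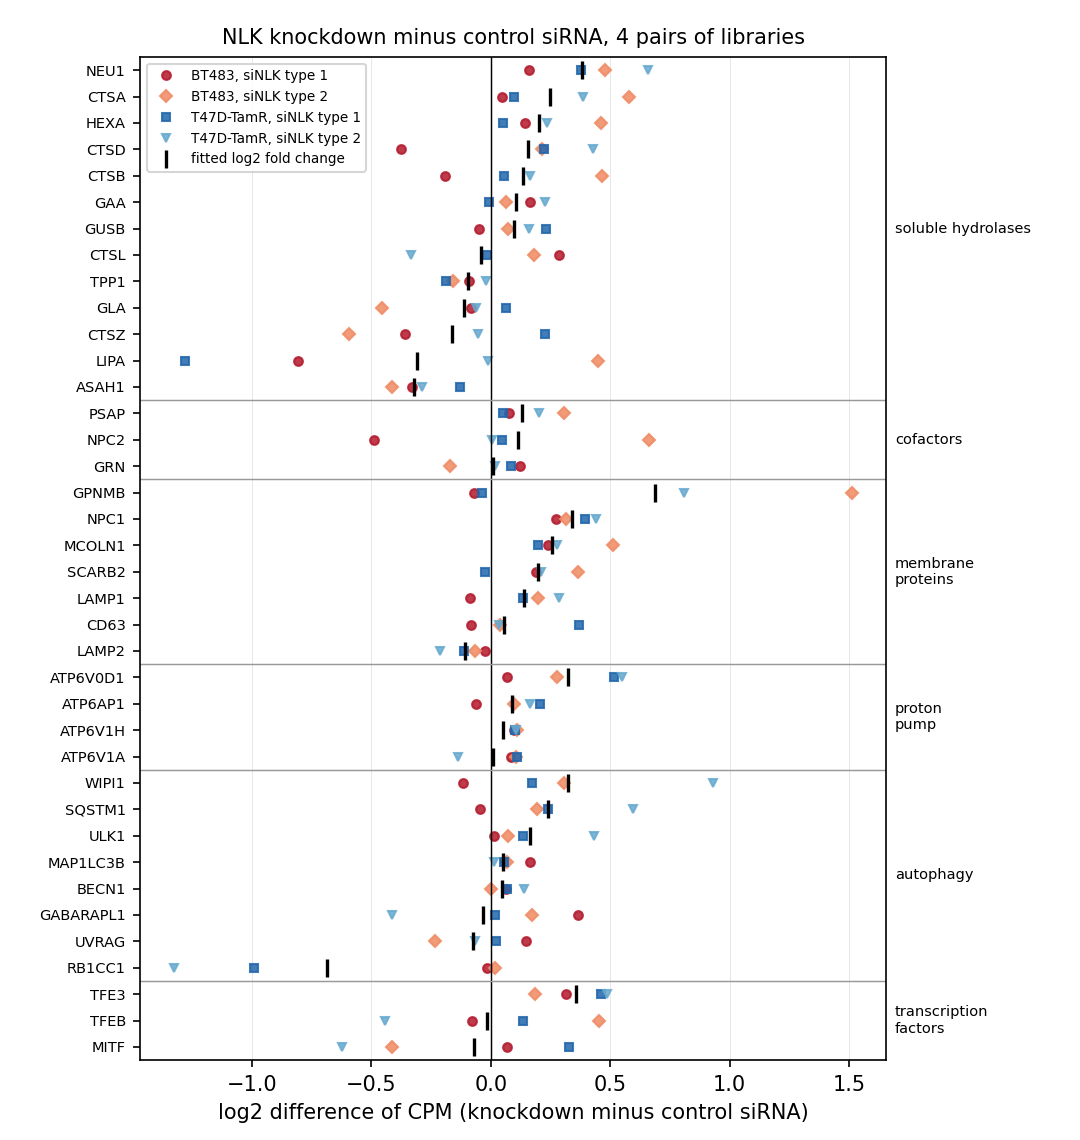
Log2 difference of CPM between NLK siRNA and control siRNA for each member (x axis), one row a gene grouped by role, with one coloured point for each siRNA in each line and a black tick for the fitted log2 fold change. LIPA lies far left of 0 with type 1 in both lines, GPNMB lies right of 0 with type 2 in both lines, and RB1CC1 lies left of 0 in T47D-TamR and near 0 in BT483.

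The 4 highest estimates were those of GPNMB (0.69, SE 0.403), NEU1 (0.38, SE 0.136), TFE3 (0.36, SE 0.113) and NPC1 (0.34, SE 0.11), each with an adjusted p of 0.875 or 0.885. TFE3 had 68.5 and 62.6 CPM with siNLK type 1 and type 2, against 55 CPM with siCtrl in BT483, and 97.6 and 99.3 CPM, against 70.8 CPM, in T47D-TamR. NPC1, the membrane protein that exports cholesterol from the lysosome, had 44 and 45.4 CPM with the 2 siRNAs, against 36.5 CPM in BT483, and 104 and 107 CPM, against 78.9 CPM, in T47D-TamR. NEU1 had 65.9 and 82.4 CPM, against 59 CPM in BT483, and 174 and 211 CPM, against 134 CPM, in T47D-TamR. For these 3 genes all 4 knockdown libraries lay above their own control. RMC1 overlaps NPC1 on the opposite strand.

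The 4 lowest were RB1CC1 (-0.68, SE 0.297), ASAH1 (-0.32, SE 0.154), LIPA (-0.31) and CTSZ (-0.16), none of them called. ASAH1 had 254 and 239 CPM with siNLK type 1 and type 2, against 319 CPM with siCtrl in BT483, and 168 and 151 CPM, against 184 CPM, in T47D-TamR. CTSZ had 7.52 and 6.39 CPM, against 9.68 CPM in BT483, and 270 and 222 CPM, against 230 CPM, in T47D-TamR. CTSZ was below its control in BT483 and on both sides of it in T47D-TamR. Fitted per line, 0 members were called in BT483 (0.00416% of all genes, 1 member at an unadjusted p under 0.05) and 0 in T47D-TamR (0.00416%, 5 members), and in the difference between the lines 0 members and 0% of all genes were called (1 member at an unadjusted p under 0.05, RB1CC1). DESeq2 and limma called 0 members in each of these 3. In T47D-TamR the estimate of RB1CC1 was -0.96 (SE 0.215). NLK itself, the target of the siRNAs, was not called in the T47D-TamR fit (-1.42, SE 0.235). The lack of called members in that fit therefore cannot show that they were unchanged.

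The 2 NLK siRNAs differed from each other in 2 members. LIPA and GPNMB were higher with type 2 than with type 1 in both lines, and they were the only members called of 38, where 0.329% of all genes were called. LIPA encodes lysosomal acid lipase, which splits cholesteryl esters and triglycerides. It had 47 CPM with type 2 and 19.6 CPM with type 1 in BT483, and 138 and 57.3 CPM in T47D-TamR, with siCtrl at 34.4 and 139 CPM. So the type 1 libraries were below siCtrl in both lines, while type 2 was above it in BT483 and at its level in T47D-TamR. The log2 fold change of type 2 over type 1 was 1.27 (SE 0.151, adjusted p = 0.00656 by edgeR), and the count ratio was 2.399 in BT483 (95% interval 2.115 to 2.729) and 2.408 in T47D-TamR (2.263 to 2.564). The siCtrl libraries with tamoxifen had 40.9 CPM of LIPA in BT483 and 143 CPM in T47D-TamR, and the drug arm had 139, 122 and 119 CPM with VX-702, with DMSO and tamoxifen, and with DMSO.

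GPNMB had 26 CPM with type 2 and 8.62 CPM with type 1 in BT483, and 79.5 and 44.2 CPM in T47D-TamR, with siCtrl at 9.06 and 45.3 CPM. Here the type 1 libraries were at the level of siCtrl and type 2 was the higher one (log2 fold change 1.21, SE 0.192, adjusted p = 0.0175). Both calls were lost with limma on the deposited log2 TPM table (adjusted p = 0.106 for LIPA and 0.132 for GPNMB), without the BT483 siNLK type 1 library (0.0991 and 0.242) and without that of T47D-TamR (0.203 for both), and GPNMB also without the BT483 siNLK type 2 library (0.111). The members at an unadjusted p under 0.05 but not called were CTSA, CTSB, NEU1, NPC2, WIPI1 and SQSTM1, with estimates of 0.30 to 0.60, and MITF, with -0.69. Higher with type 2 in both lines were 17 members (44.7%, against 27.1% of all genes), and lower in both were 10 (26.3%, against 23.6%).

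The sequences of both NLK siRNAs were given by the study and are shown because 2 members differed between them. They are the sense strands, 5′ to 3′, and the capitals mark the 7 bases that pair with the seed of the antisense strand, so a transcript that holds those letters could pair with the seed. Type 1 and type 2 are taken here as the first and the second siRNA of the study by their numbers.
siNLK type 1: gucaguaacagAUCCAAGa
siNLK type 2: gagcugaauuuGAAGACUa
Each whole sequence was matched in the transcripts of NLK, on chromosome 17, and of no other gene of GENCODE 29. The letters of the type 1 site occurred in 9.46% of 14784 searched 3′ UTRs and, among the 38 members, in LIPA alone. Those of the type 2 site occurred in 12% and, among the members, in GRN and LIPA. The sites are shown as DNA with 11 bases on either side and the match in capitals, from the 3′ UTRs of LIPA on chromosome 10 (chr10:89213569-89414557, minus strand, GRCh38) and of GRN on chromosome 17 (chr17:44345086-44353102, plus strand).
LIPA, type 1 site: tgtttttttatATCCAAGaaaatgataac
LIPA, type 2 site: ttaaatgctttGAAGACTgatacactcaa
GRN, type 2 site: gggacagtactGAAGACTctgcagccctc
LIPA holds sites for both siRNAs. With type 1 LIPA had 19.6 CPM, against 34.4 CPM with siCtrl, in BT483 and 57.3 CPM, against 139 CPM, in T47D-TamR. ASAH1, TPP1, LAMP2, RB1CC1 and GPNMB, in whose searched 3′ UTRs no type 1 site was found, were also below siCtrl in both lines. Some of these gaps were slight. GPNMB had 8.62 CPM, against 9.06 CPM, in BT483 and 44.2 CPM, against 45.3 CPM, in T47D-TamR. In BT483 LAMP2 had 165 CPM, against 168 CPM, and RB1CC1 98.6 CPM, against 99.6 CPM. GRN had 210 CPM with type 2 and 257 CPM with type 1, against 236 CPM with siCtrl in BT483, and 202 and 211 CPM, against 199 CPM, in T47D-TamR, values on both sides of the control. In the searched 3′ UTR of GPNMB, a gene at chr7:23235967-23275108, neither site was found. Other parts of the transcripts were not searched for the sites. A match is not a measured interaction, and the part of the siRNA sequence in these values was not tested. IFIT2, an interferon-induced gene whose exons overlap those of LIPA on the opposite strand, had 24.2 CPM with type 2 and 7 CPM with type 1 in BT483 and 30.3 and 29.3 CPM in T47D-TamR. What part IFIT2 reads have in the LIPA values was not tested.

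VX-702 was compared with DMSO as 1 library against 1, with no test. Of the 36 members with a mean of at least 5 CPM, 30 were higher with VX-702, with a median log2 difference of 0.12, against 57.1% and 0.05 for the 12251 genes at that level. On the deposited log2(TPM + 1) values, 18 of 36 were higher and the median was -0.00, and the median of all genes was then -0.05, a shift of -0.11. Relative to all genes the members' median was 0.06 on CPM and 0.05 on log2(TPM + 1). Past 1.5-fold in either direction were 6.8% of genes and 1 member, RB1CC1, with 45.4 CPM with VX-702 and 95.5 CPM with DMSO, a ratio of 0.4758 (95% interval 0.4424 to 0.5115). The ratio of TFEB, whose mean was under 5 CPM, was 1.515 (1.076 to 2.146), with 3.63 CPM with VX-702 and 2.4 CPM with DMSO. The next differences were 0.34 for TFE3, 0.31 for GAA and ATP6V0D1, 0.29 for NPC2, -0.28 for ATP6V1A, the catalytic subunit of the pump, and -0.24 for GABARAPL1.

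The siRNA arm was set against the drug arm in T47D-TamR. This is a contrast of lipid transfection with control siRNA, of any difference in treatment time and of DMSO, which is named only for the drug arm. These cannot be told apart. SQSTM1 and GPNMB had the smallest p-values of the members. SQSTM1, the autophagy receptor p62, had 226 CPM with siCtrl and 162 CPM with DMSO, and 279 and 182 CPM in the matching pair with tamoxifen. All 4 siRNA libraries of T47D-TamR, at 226 to 343 CPM, lay above the 3 drug libraries, at 162 to 185 CPM (log2 fold change 0.64, SE 0.152, unadjusted p = 0.000871, adjusted p = 0.398 by edgeR). GPNMB had 45.3 CPM with siCtrl and 13.6 CPM with DMSO, and 61.1 and 21 CPM with tamoxifen, a ratio of 3.339 (95% interval 2.953 to 3.784) and 2.905 (2.635 to 3.206). The 2 arms did not overlap, and the estimate was 1.58 (SE 0.468, adjusted p = 0.904). Called were 0 members (0.0208% of all genes), with 4 at an unadjusted p under 0.05, and DESeq2 called 1, GPNMB, and limma 0. Higher in both pairs were 20 members (52.6%, against 25.2% of all genes), and lower in both were 6 (15.8%, against 30.9%): CTSB, GAA, GUSB, GRN, ULK1 and TFEB. Markers differed in the same fit: 5 of 7 fibroblast markers were positive (median 1.19, with VIM at 3.31 and COL3A1 at 2.48, not called). VIM had 1.6 CPM with siCtrl and 0.122 CPM with DMSO, and COL3A1 1.24 and 0.203 CPM. Their DMSO values thus lay near the level of 3 counts. FN1 was called lower (-1.465, adjusted p = 0.0443 by edgeR). Of 8 luminal markers 3 were positive (median -0.16, with KRT19 at -0.58 and KRT8 at -0.35, none called), of 3 macrophage markers tested 2, and of 3 melanocyte markers 1. The luminal sum was 5770 CPM with siCtrl and 7410 CPM with DMSO, and 6630 and 8140 CPM with tamoxifen, and the part of these markers' cells in the members' values was not tested.

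The lines themselves differed in most members, as in most genes tested. Over the 8 siRNA libraries, with the 4 matched conditions as replicates, 30 of 38 members passed the test between BT483 and T47D-TamR, 16 higher and 14 lower in BT483. That is 78.9%, against 70.7% of the 21990 genes tested. Median log2 ratios between the lines also differed by gene length. Genes with an exon union of at least 10704 bases had 0.13 to 0.34 over the 4 pairs of libraries. Those of up to 1828 bases had -0.75 to -0.37. With offsets for length and GC content 30 members were called, 29 of them the same. What part length has in the line values was not tested beyond those offsets. In the values that follow, the 4 libraries of a line are siNLK type 1, siNLK type 2, siCtrl with tamoxifen and siCtrl, and the drug arm of T47D-TamR is VX-702, DMSO with tamoxifen and DMSO.

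Higher in BT483 by most was MITF, with 5.64, 4.01, 5.69 and 5.38 CPM, against 1.23, 0.596, 0.976 and 0.962 CPM in T47D-TamR and 0.877, 1.19 and 0.853 CPM in its drug arm (log2 fold change 2.44, SE 0.239, adjusted p = 2.87e-06 by edgeR). CTSL had 42.7, 39.7, 67.7 and 35 CPM in BT483, against 11, 8.81, 9.46 and 11.1 CPM and, in the drug arm, 10.6, 9.93 and 9.51 CPM in T47D-TamR (2.12, SE 0.184, adjusted p = 1.16e-06). TFEB had 4.6, 6.69, 9.33 and 4.87 CPM in BT483, against 1.95, 1.28, 2.25 and 1.76 CPM, and 3.63, 2.88 and 2.4 CPM in the drug arm (1.75, SE 0.245, adjusted p = 5.39e-05). For these 3 the lowest BT483 library lay above every T47D-TamR library. CTSB, cathepsin B, had 177, 278, 221 and 202 CPM in BT483, against 75.5, 81.6, 80.8 and 72.7 CPM, and 85.5, 80.9 and 73.2 CPM in the drug arm (1.45, SE 0.116, adjusted p = 5.26e-07). SCARB2, the receptor that brings glucocerebrosidase to the lysosome, had 292, 331, 301 and 256 CPM in BT483, against 124, 145, 116 and 126 CPM, and 107, 115 and 102 CPM in the drug arm (1.17, SE 0.106, adjusted p = 1.52e-06). Neither gene overlapped between the lines.

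Lower in BT483 by most was CTSZ, with 7.52, 6.39, 9.4 and 9.68 CPM, against 270, 222, 279 and 230 CPM in T47D-TamR and 292, 275 and 242 CPM in its drug arm (-4.97, SE 0.14, adjusted p = 2.13e-10). NPC2 had 7.2, 16.1, 13.2 and 10.1 CPM in BT483, against 74.4, 72.1, 87.5 and 71.9 CPM, and 75.4, 78.6 and 61.7 CPM in the drug arm (-2.79, SE 0.179, adjusted p = 1.25e-07). The gap of both genes far exceeded their spread within a line. GPNMB, given by library above, was at -2.11 (SE 0.152, adjusted p = 2.2e-07), but its drug-arm libraries, at 14.4, 21 and 13.6 CPM, overlapped BT483. GLA had 9.47, 7.29, 7.01 and 10 CPM in BT483, against 31.1, 28.5, 33.9 and 29.8 CPM, and 27.7, 25.3 and 25.3 CPM in the drug arm (-1.92, SE 0.16, adjusted p = 7.46e-07). LIPA was at -1.77 (SE 0.124, adjusted p = 1.82e-07), with 19.6 to 47 CPM in BT483 and 57.3 to 143 CPM in the siRNA arm of T47D-TamR. NEU1 (-1.27, adjusted p = 8.76e-07), which had 131 CPM with VX-702, and NPC1 (-1.25, adjusted p = 9.08e-07) were the next. NPC1 had 37.6 CPM in BT483 with tamoxifen, against 91.4 CPM in T47D-TamR, and 85, 83.3 and 78.7 CPM in the drug arm. Both cholesterol exporters, NPC1 and NPC2, were thus lower in BT483.

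**Figure D5:**
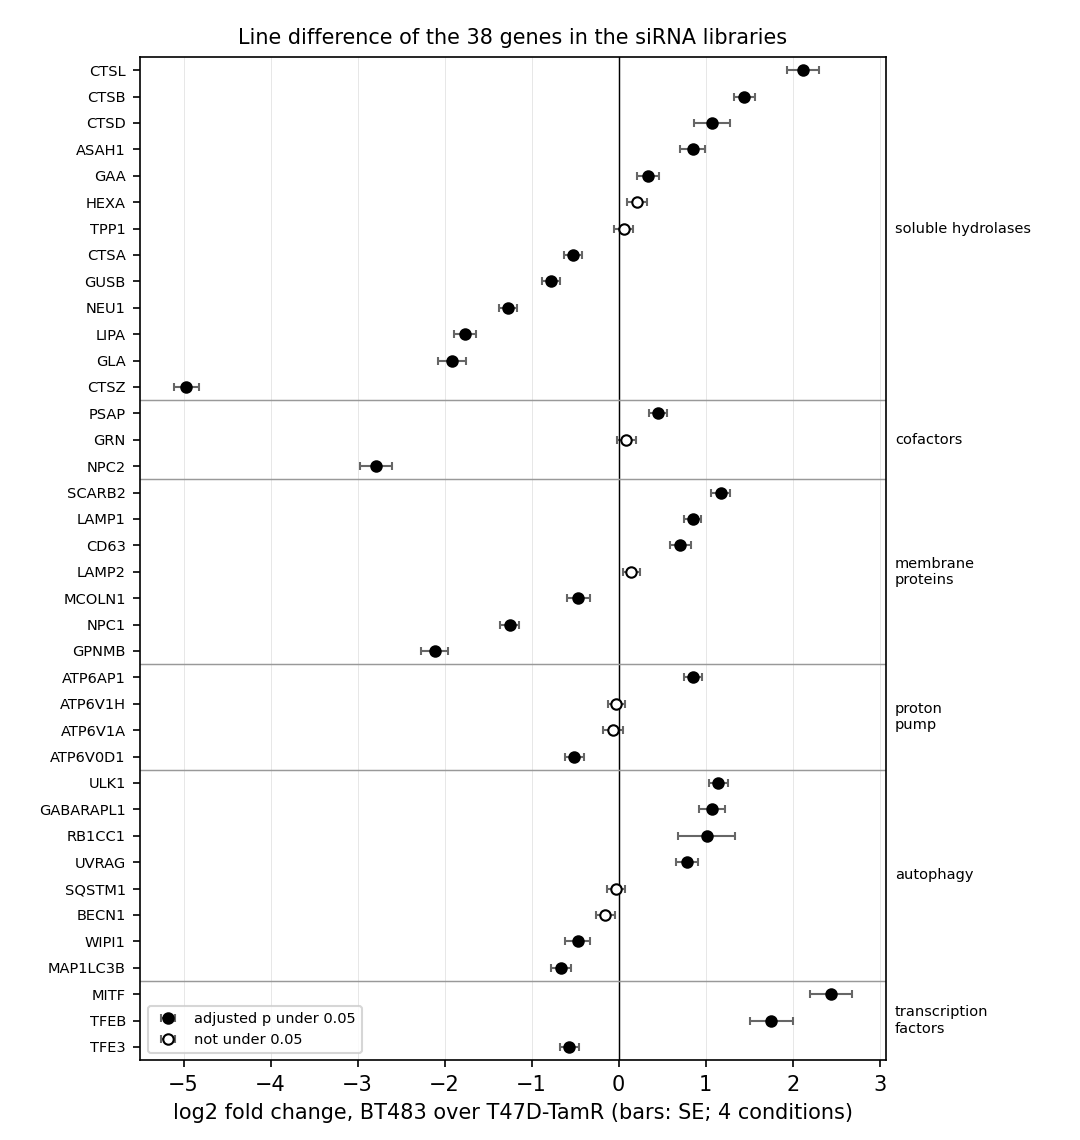
Log2 fold change of BT483 over T47D-TamR for each member with its standard error as the bar (4 conditions a line), one row a gene grouped by role, called members filled and the others open. CTSZ lies furthest left and MITF furthest right, and members of each role lie on both sides of 0.

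The other called members differed by less. Among the hydrolases and cofactors, CTSA had 170, 246, 226 and 165 CPM in BT483, against 259, 317, 307 and 242 CPM, and 248, 255 and 228 CPM in the drug arm (-0.53). GUSB, beta-glucuronidase, had 60.6, 65.9, 67.7 and 62.7 CPM in BT483, against 116, 110, 105 and 98.7 CPM, and 132, 116 and 109 CPM in the drug arm (-0.78). The lines did not overlap for GUSB but did for CTSA, whose call was lost with limma (-0.14, adjusted p = 0.187). CTSD was at 1.07, with 211, 318, 157 and 274 CPM in BT483, against 103, 119, 126 and 88.1 CPM, and 116, 111 and 98.8 CPM in the drug arm. ASAH1 was at 0.85, with 239 to 436 CPM in BT483 and 140 to 184 CPM in all T47D-TamR libraries. GAA had 176, 164, 150 and 157 CPM in BT483, against 111, 131, 148 and 112 CPM, and 164, 148 and 132 CPM in the drug arm. The GAA call (0.34, SE 0.124, adjusted p = 0.0281) turned round with offsets for length and GC content (-0.36, adjusted p = 0.00634), and was lost without any one of the 6 siRNA libraries that had no tamoxifen (adjusted p 0.0653 to 0.16). PSAP had 736, 863, 882 and 698 CPM in BT483, against 536, 595, 613 and 518 CPM, and 629, 607 and 547 CPM in the drug arm (0.45).

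Of the membrane and pump proteins, LAMP1 had 529, 643, 620 and 561 CPM in BT483, against 317, 351, 318 and 288 CPM, and 322, 315 and 275 CPM in the drug arm (0.85). CD63 had 278, 303, 386 and 294 CPM in BT483, against 221, 176, 183 and 171 CPM, and 160, 158 and 153 CPM in the drug arm (0.71). ATP6AP1 had 419, 468, 479 and 438 CPM in BT483, against 251, 244, 264 and 218 CPM, and 253, 250 and 223 CPM in the drug arm (0.85). For these 3, all abundant, every BT483 library lay above every T47D-TamR library. MCOLN1, a cation channel of the lysosomal membrane, had 16.5, 19.9, 20.1 and 13.9 CPM in BT483, against 24, 25.4, 23.7 and 20.9 CPM, and 21.5, 22.1 and 20.6 CPM in the drug arm (-0.46). ATP6V0D1 had 116, 134, 124 and 111 CPM in BT483, against 185, 190, 174 and 129 CPM, and 172, 156 and 139 CPM in the drug arm (-0.51). Both were lower in BT483, while ATP6V1A and ATP6V1H, subunits of the cytosolic part of the pump, were not called. The MCOLN1 call was lost without the BT483 siNLK type 1 library (adjusted p = 0.0625) and without that of T47D-TamR (0.0598). With limma on the deposited table ATP6V0D1 was not called (adjusted p = 0.0638) and ATP6V1H was.

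Of the autophagy genes, ULK1, the kinase that starts the process, had 282, 294, 262 and 280 CPM in BT483, against 115, 142, 134 and 105 CPM, and 132, 142 and 124 CPM in the drug arm (1.15). GABARAPL1 had 29, 25.4, 37.3 and 22.5 CPM in BT483, against 13.9, 10.3, 14.8 and 13.7 CPM, and 10.8, 13.3 and 12.8 CPM in the drug arm (1.07). UVRAG, a partner of BECN1 in the lipid kinase complex, had 39.2, 30.1, 46.9 and 35.4 CPM in BT483, against 21.2, 20, 23 and 20.9 CPM, and 22, 22.3 and 21.7 CPM in the drug arm (0.78). These 3 were higher in every BT483 library. MAP1LC3B, which encodes an LC3 protein, had 50.6, 47.2, 60.8 and 45.1 CPM in BT483, against 79.4, 77.2, 80.4 and 76.4 CPM, and 75.5, 81.5 and 72.4 CPM in the drug arm (-0.66). WIPI1, a phosphoinositide-binding protein of early autophagic membranes, had 16.9, 22.7, 18.7 and 18.3 CPM in BT483, against 22.2, 37.6, 26.7 and 19.7 CPM, and 21.6, 22.2 and 21 CPM in the drug arm (-0.47). WIPI1 overlapped between the lines, and its call was lost without the siNLK type 2 library of BT483 (adjusted p = 0.0753) or of T47D-TamR (0.071) and with offsets for length and GC content (-0.14, adjusted p = 0.341). RB1CC1 was called at 1.01 (adjusted p = 0.0386), but with siCtrl alone it had 99.6 CPM in BT483 and 101 CPM in T47D-TamR, and the call was lost without either siNLK library of either line (adjusted p 0.1 to 0.142). TFE3 was lower in BT483 (-0.57, adjusted p = 0.00058), with 68.5, 62.6, 57.6 and 55 CPM, against 97.6, 99.3, 86.6 and 70.8 CPM in T47D-TamR and 77.7, 69.8 and 61.4 CPM in its drug arm. Not called were BECN1, SQSTM1, TPP1, a tripeptidyl peptidase, HEXA, a subunit of hexosaminidase, GRN, LAMP2, ATP6V1A and ATP6V1H. Of these, limma on the deposited table called SQSTM1, TPP1, GRN, LAMP2 and ATP6V1H. The filter of at least 10 counts in every library called HEXA and LAMP2, and the offsets for length and GC content called SQSTM1.

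Other genes of the same pathways were taken from lists that leave the 38 out. With tamoxifen, 29 of 38 other hydrolases were positive (median 0.16), 16 of 23 other membrane and sorting proteins (0.07), 11 of 13 other pump subunits (0.10), 25 of 38 other autophagy genes (0.09), 15 of 18 regulators of nutrient sensing upstream of TFEB (0.09) and 19 of 23 cholesterol synthesis genes (0.13), and none of them was called. In BT483, where tamoxifen was 1 library against 1, the other hydrolases with the lowest estimates were CTSV and GGH. CTSV, cathepsin V, had 1.06 CPM with tamoxifen and 4.87 CPM without (log2 fold change -2.19). GGH, the gamma-glutamyl hydrolase of folates, had 18 and 46.6 CPM (-1.37). The BT483 knockdown libraries lay between these values, with 2.14 and 1.9 CPM of CTSV and 31.3 and 25.6 CPM of GGH. In T47D-TamR GGH had 60.9 CPM with tamoxifen and 86.4 CPM without in the siRNA arm, and 70.7 and 80.5 CPM in the drug arm, and CTSV 10.6 and 13.9 CPM, and 10.8 and 9.67 CPM. The difference between the lines was called for neither (adjusted p = 0.0747 for CTSV and 0.286 for GGH). Cholesterol synthesis genes were positive for 8 of 23 in BT483 (median -0.11) and 17 of 23 in T47D-TamR (0.28), none of them called.

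With NLK knockdown, 24 of 38 other hydrolases, 18 of 23 membrane proteins, 10 of 13 pump subunits, 17 of 38 autophagy genes, 13 of 18 nutrient regulators and 19 of 23 cholesterol synthesis genes were positive, with medians from -0.01 to 0.11, and none was called. None of these genes was called between the 2 siRNAs or between the arms. The nearest between the siRNAs were LAPTM4A, a membrane protein of late endosomes (-0.95, adjusted p = 0.0563), and ARSB, a sulfatase (-0.93, adjusted p = 0.096). Between the lines, where 70.7% of all genes tested were called, 11 other hydrolases were called higher and 20 called lower in BT483. They were led by CTSK, cathepsin K (4.11), IDUA, alpha-iduronidase (2.76), PPT1, a palmitoyl thioesterase (-2.75), and ARSA, arylsulfatase A (2.49). Of the membrane proteins 7 were called higher and 8 called lower, led by LAMP3 (-7.04), and of the pump subunits 4 and 4, led by ATP6V0E2 (2.86). Of the autophagy genes 9 were called higher and 13 called lower, with RUBCN, the autophagy inhibitor Rubicon, at -1.49 (SE 0.127). Of the nutrient regulators 7 and 7 were called, led by RRAGD (-2.76). LAMP3 had only 0.19 to 2.27 CPM in BT483. MAP1LC3A had a larger estimate than RUBCN (1.64, SE 0.6, adjusted p = 0.0283) but lay near the level of 3 counts, with 0.335 to 0.569 CPM in BT483 and 0.0397 to 0.241 CPM in the T47D-TamR siRNA arm. Of the 23 cholesterol synthesis genes 18 were called lower and 1 called higher in BT483. By sign alone 21 were lower and 2 higher, with a median of -0.96.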

How the data were processed

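Poly(A) RNA of 11 libraries was sequenced in pairs of reads from a stranded kit, per the labels' protocols, with GRCh38 as the genome build, per the submitters' processing notes. Aligner, annotation and strand setting are not given in the sources used for this. The authors deposited counts (raw, by gene symbol), each library's log2(TPM + 1) values, and a series-wide log2 TPM table, from which gene names turned into dates (27 of them) were dropped. Columns were matched by name, and 0 were left unmapped.

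Groups came from sample titles. Counts were tested with edgeR 4.0.16 in R 4.3.3: TMM factors (0.94 to 1.05), filterByExpr, robust quasi-likelihood fits, 2-sided F tests and Benjamini-Hochberg adjustment over all genes tested, with a threshold of 0.05. Knockdown, tamoxifen and arm came from an additive fit of 11 libraries, blocked by context (the siRNA arm of BT483, that of T47D-TamR, and the drug arm) with VX-702 as a term. Further fits had effects per line, a term for siRNA type 2, or the 8 siRNA libraries blocked by condition, for 11 tests in all. The biological coefficient of variation was 0.162 to 0.179. Groups of 1 library were assumed to vary as the rest do. The VX-702 comparison used log2 CPM with a prior count of 2 and a 1.5-fold limit among genes with a mean of at least 5 CPM. Ratio intervals are exact 95% binomial intervals, conditional on the sum of both counts.

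Alternatives were DESeq2 1.42.0, limma 3.58.1 on the deposited log2 TPM table (genes with a mean of at least 1), RLE factors, other filters, no block, leaving out each library, and, chosen after seeing the data, offsets for exon length and GC content (97.3% of genes had a value). Gene positions, 3′ UTRs and lengths came from GENCODE 29, and promoters from RefSeq. Fits were tested on simulated data. The members, the other lists and the rule for naming genes (members called in any test, the highest and lowest estimates, the 3 transcription factors) were chosen with earlier results of these data known.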

Additional observations from a re-analysis of the deposited data

How the results depend on the processing

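Counts of called members were recomputed under each alternative. With no filter on low counts they were 2 for knockdown (GPNMB and RB1CC1), 1 for tamoxifen, 2 for the siRNA arm against the drug arm, 1 for knockdown in T47D-TamR, 1 for tamoxifen in BT483 and 2 for tamoxifen between lines. DESeq2 gave 1 for the arms and 1 for tamoxifen between lines. For tamoxifen in T47D-TamR the count was 0 with limma, under the filter of 10 counts a library and with length and GC offsets, and for siRNA type 2 against type 1 it was 0 with limma. Leaving out 1 library at a time gave 0 to 1 for tamoxifen (RB1CC1, called at -1.22 without the BT483 siCtrl library, adjusted p = 0.0365), 0 to 1 for the arms (GPNMB, without the BT483 siNLK type 2 library), 0 to 1 for tamoxifen in T47D-TamR, 0 to 2 for the siRNAs and 27 to 30 for the lines. Over all genes, edgeR calls were 1 for knockdown, 9 for tamoxifen, 55 for tamoxifen in T47D-TamR, 341 in BT483, 157 between lines, 5 for the arms and 79 for the siRNAs. DESeq2 called 6, 120, 169, 481, 328, 45 and 354, the fits with no filter 249, 513, 354, 670, 502, 206 and 339, and limma 0, 0, 0, 7, 1, 0 and 0; the cause was not tested.

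Of single members, the tamoxifen estimate of GLA was 0.0419 with no replicate block and ran from -0.2107 to 0.0716 when 1 library was left out. That of CTSD was 0.0023 with DESeq2 and 0.0014 with RLE factors, and ran from -0.289 to 0.3003. That of LAMP2 was 0.0094 with DESeq2 and with RLE factors, 0.0036 with no replicate block and 0.2026 with length and GC offsets, and ran from -0.0791 to 0.053. The line estimate of GAA was -0.36 with length and GC offsets. Single members were followed in 5 of the 11 tests: those called, and for knockdown and tamoxifen the 4 highest and 4 lowest estimates. Of their values under alternatives, 732 kept direction and side of the threshold, 31 lost a call, 4 gained one and 22 turned sign. Library numbers pair nothing here, since every group held 1 library. The fits were blocked by context or condition, and without that block (no replicate block) 0 members were called for knockdown, 0 for tamoxifen and 30 for the lines. Each effect rests on 1 library a group, and at this size a change of 1 log2 unit was often not called in simulated data in the fits per line.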
